A study of Mus musculus with 6 samples.

Results

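Ependymal cells line the brain ventricles, and 9 of their genes were read in demyelinating mouse brain lesions. The genes were Foxj1, Ak7, Ccdc153, Tmem212, Dynlrb2, Tekt1, Enkur, Pifo and Rarres2, given by name as ependymal cell and motile cilia genes. Each was to be read from the probe set that the platform annotation assigns to 1 gene symbol, the one with the highest mean where there were several. This gave 8 of the 9 genes, each with a single probe set, out of 22180 genes that could be named in this way among 41345 probe sets. The only probe set of Rarres2, which encodes the secreted chemoattractant chemerin, is annotated to a second gene as well, so no value is given for it.

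Ependymal cells carry tufts of motile cilia that move cerebrospinal fluid along the ventricle wall. A motile cilium is built on an axoneme, a ring of doublet microtubules around a central pair, and dynein motor proteins attached to the doublets make it bend. The transcription factor Foxj1 switches on many of the genes needed for this structure, together with factors of the RFX family. In the forebrain these cells cover the wall of the lateral ventricle, next to the stem cells of the subventricular zone and to the striatum.

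The study used 3 transgenic lesions, from mice of a line in which GFAP+ astrocytes that do not proliferate can be removed by induced apoptosis, and 3 wild type lesions. All mice were 5 to 6 weeks old and were given a focal lesion with LPC, an agent that strips myelin. Both genotypes were injected with CID, the compound that triggers the ablation, 48 hours later, and the lesions were macrodissected 7 days after the lesion. Total RNA of each lesion was hybridised to 1 Affymetrix array, and the promoter behind the transgene is not stated. Since no label says that each lesion is from an animal of its own, the p-values describe the spread among these 6 samples, which may be technical. Levels are given as log2 intensity, and each difference is the transgenic mean minus that of wild type.

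The arrays differed in ways that touch the results. Median log2 intensity was 5.34 on the array of transgenic replicate 2 and 5.52 to 5.59 on the other 5. Mean log2 levels of 3 Y-linked genes were 5.99, 3.39 and 6.33 in transgenic replicates 1, 2 and 3 and 2.78 to 3.11 in wild type lesions, so transgenic replicates 1 and 3 read as male and the other 4 arrays as female. Genotype is therefore partly confounded with sex. In whole lesions, fewer cells of a type and less RNA per cell cannot be told apart. Ccdc153 and Dynlrb2 lay above the median probe set of the array on all 6 arrays, whereas Enkur and Pifo lay below it on all 6. With no detection calls to hand, values near or below that median cannot be sorted into expressed and not expressed.

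Of the 8 measured genes, Ak7, Ccdc153 and Tmem212 had the clearest lower values in transgenic lesions. Foxj1 had a lower mean too, but its groups overlapped and its confidence interval included 0. Dynlrb2, Tekt1, Enkur and Pifo showed no difference between genotypes beyond their spread. None of the 8 passed an adjusted p of 0.05 in limma, and neither did any of the 41345 probe sets (0.0%), of which 3668 (8.87%) had an unadjusted p under 0.05. At that unadjusted level 3 of the 8 genes were lower and 0 higher, where 4.05% of all probe sets were lower and 4.82% higher. With quantile normalization the count was 2, since Tmem212 then had an unadjusted p of 0.0522 in limma. The median difference of the 8 was -0.15, against -0.01 over all probe sets. A lower mean in transgenic lesions was found for 5 of the 8, against 51.1% of all probe sets. Among genes with a mean level in the range of the 8 the share was 55.1%. Tekt1 was counted among the 5 at -0.01, and with quantile normalization or median centring 4 of the 8 were lower.

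**Figure D1:**
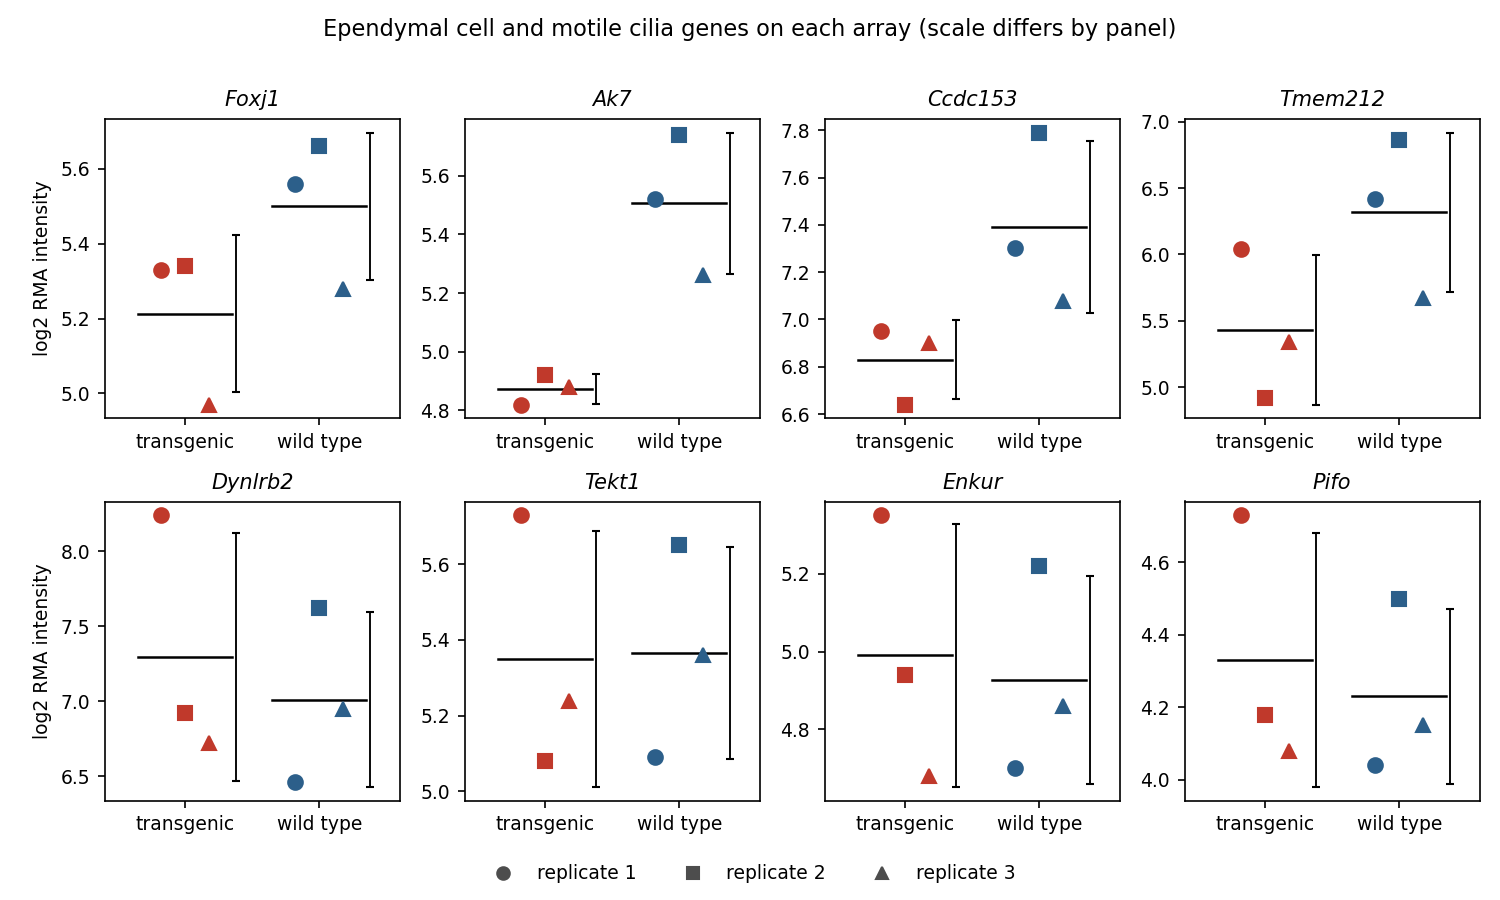
Log2 RMA intensity (vertical axis, scale set per panel) of the 8 measured genes in 3 transgenic and 3 wild type lesions, with 1 point per array, the group mean as a line and the SD as a bar. The groups are apart in Ak7 and Ccdc153 and overlap in the other 6 genes, and transgenic replicate 1 stands high in the lower row of panels.

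Foxj1, the master regulator of the motile cilium programme, had log2 levels of 5.33, 5.34 and 4.97 in transgenic replicates 1, 2 and 3, against 5.56, 5.66 and 5.28 in wild type replicates 1, 2 and 3. Transgenic replicate 3 was the lowest array, and wild type replicate 3 lay inside the transgenic range, so the groups overlapped. The difference was -0.29 (SE 0.18; 95% confidence interval -0.70 to 0.13), with an adjusted p of 0.693 in limma.

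Ak7 encodes an adenylate kinase of the axoneme, which interconverts the adenine nucleotides that fuel dynein. It had log2 levels of 4.82, 4.92 and 4.88 in transgenic replicates 1, 2 and 3, against 5.52, 5.74 and 5.26 in the wild type replicates. All 3 transgenic arrays lay within 0.09 of each other and below every wild type array. Mean levels were 4.87 ± 0.05 in transgenic and 5.51 ± 0.24 in wild type lesions (SD, n = 3 each), a 1.55-fold difference. In limma the difference of -0.64 (SE 0.16) had an unadjusted p of 0.0056 and an adjusted p of 0.429. On 5 of the 6 arrays, all but wild type replicate 2, Ak7 lay below the median probe set, so it was in dim signal in both genotypes.

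Ccdc153, a coiled-coil protein widely used to mark ependymal cells, had log2 levels of 6.95, 6.64 and 6.90 in transgenic replicates 1, 2 and 3, against 7.30, 7.79 and 7.08 in the wild type replicates. Again no transgenic array reached the lowest wild type array, here with a gap of 0.13 between 6.95 and 7.08. The difference was -0.56 (SE 0.21), a 1.48-fold lower level in transgenic lesions, with an unadjusted p of 0.0321 and an adjusted p of 0.524 in limma. Groups that do not overlap with the transgenic side lower were thus found for 2 of the 8 genes and for 7.6% of all probe sets. In either direction 16.1% of all probe sets had groups that did not overlap.

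Tmem212, a membrane protein also used to mark ependymal cells, varied more between lesions. Its log2 levels were 6.04, 4.92 and 5.34 in transgenic replicates 1, 2 and 3, against 6.42, 6.86 and 5.67 in the wild type replicates. Transgenic replicate 1 exceeded wild type replicate 3, so the groups overlapped. The difference of -0.88 (SE 0.38) was the largest of the 8 in size, a 1.85-fold lower level in transgenic lesions, with an unadjusted p of 0.0497 and an adjusted p of 0.563 in limma. The range within a group was 1.13 in transgenic and 1.19 in wild type lesions, wider than the difference itself.

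Dynlrb2 encodes a roadblock-type light chain of dynein. Its log2 levels were 8.24, 6.92 and 6.72 in transgenic replicates 1, 2 and 3, against 6.46, 7.62 and 6.95 in the wild type replicates. Transgenic replicate 1 stood alone above all other arrays, and without it the difference of 0.29 (SE 0.45; 95% confidence interval -0.77 to 1.34) became -0.18. Its paralog Dynlrb1 is close in sequence and probe specificity was not tested, so the value is uncertain in that respect.

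Tekt1 encodes a tektin, a filament protein of the doublet microtubules. It had log2 levels of 5.73, 5.08 and 5.24 in transgenic replicates 1, 2 and 3, against 5.09, 5.65 and 5.36 in the wild type replicates. Means were 5.35 ± 0.34 in transgenic and 5.36 ± 0.28 in wild type lesions (SD, n = 3 each), and the 95% confidence interval of the difference, -0.54 to 0.52, leaves room for a shift in either direction.

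Enkur encodes enkurin, a microtubule inner protein of the axoneme first studied in sperm, and Pifo encodes pitchfork, a ciliary protein. Enkur had log2 levels of 5.35, 4.94 and 4.68 in transgenic replicates 1, 2 and 3, against 4.70, 5.22 and 4.86 in the wild type replicates. Pifo had 4.73, 4.18 and 4.08 in the transgenic replicates, against 4.04, 4.50 and 4.15 in the wild type replicates. In both genes transgenic replicate 1 was the highest array, wild type replicate 2 came next and the groups overlapped. The difference was 0.06 (SE 0.22; 95% confidence interval -0.46 to 0.58) for Enkur and 0.10 (SE 0.22; 95% confidence interval -0.41 to 0.62) for Pifo.

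**Figure D2:**
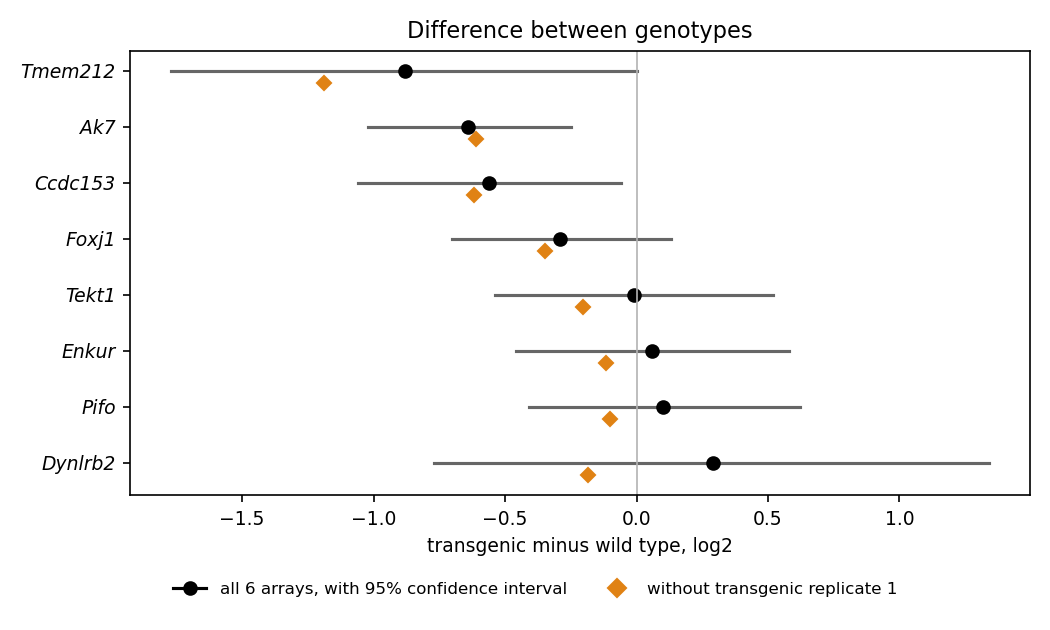
Difference in log2 intensity, transgenic minus wild type, for each of the 8 genes (rows), with its 95% confidence interval over 6 arrays as a line and the value without transgenic replicate 1 as a diamond. The intervals of Ak7, Ccdc153 and, barely, Tmem212 lie below 0, and without transgenic replicate 1 all 8 values are below 0. Without wild type replicate 2, not drawn, 4 of the 8 had a lower mean in transgenic lesions.

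Single arrays changed these counts. Without transgenic replicate 1 all 8 genes had a lower mean in transgenic lesions, whereas without wild type replicate 2 only 4 had. The median difference was -0.27 without transgenic replicate 1 and -0.04 without wild type replicate 2. Without transgenic replicate 1, 3 genes still had an unadjusted p under 0.05 in limma. Without transgenic replicate 2, transgenic replicate 3, wild type replicate 1 or wild type replicate 2 only Ak7 remained under that level, so the count of genes was 1. With array weights 2 genes passed the adjusted threshold in limma, Ak7 (adjusted p 0.0233) and Foxj1 (0.0478), as did 2611 probe sets in all. That fit gave transgenic replicate 3 a weight of 7.67 and transgenic replicates 1 and 2 weights of 0.28 and 0.26. Without wild type replicate 1 the adjusted p of Ak7 was 0.986. Against the wild type mean, the only female transgenic array (replicate 2) differed by -1.40 in Tmem212, -0.75 in Ccdc153, -0.59 in Ak7, -0.28 in Tekt1, -0.16 in Foxj1, -0.09 in Dynlrb2 and -0.05 in Pifo. Enkur differed there by 0.01, so 7 of the 8 were lower. These within-sex values rest on 1 transgenic lesion, whose array median was 0.20 below the mean of the wild type medians. After median centring 4 of the 8 were lower on it, Tmem212 (-1.20), Ccdc153 (-0.55), Ak7 (-0.39) and Tekt1 (-0.08), while Foxj1 (0.04), Dynlrb2 (0.11), Pifo (0.15) and Enkur (0.21) were higher. That centring was chosen after seeing the data.

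Variation between lesions of the same genotype was shared by the genes. Wild type replicate 2 was the highest wild type array for 8 of the 8 genes, whereas it was the highest for 33.4% of the 13481 genes whose mean level lay in the range of the 8. Transgenic replicate 1 was the highest transgenic array for 6 of the 8, against 41.9% of those 13481 genes, the exceptions being Ak7 and Foxj1. In Dynlrb2, Tekt1, Enkur and Pifo the highest arrays of all 6 were transgenic replicate 1 and then wild type replicate 2. Ak7 went the other way in transgenic replicate 1, which was its lowest array. In 6 of the 8 genes the range within transgenic lesions exceeded the difference between the genotypes, and in 7 of the 8 the range within wild type lesions did.

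The tissue sampled also differed between lesions. The mean log2 level of 7 striatal neuron markers was 6.22, 6.72 and 6.30 in transgenic replicates 1, 2 and 3, against 6.04, 8.20 and 8.80 in wild type replicates 1, 2 and 3. Wild type replicate 3, the highest array for striatal markers, was the lowest wild type array for Foxj1, Ak7, Ccdc153 and Tmem212. Wild type replicate 1, the lowest of all arrays for striatal markers, was the lowest wild type array for the other 4 genes, Dynlrb2, Tekt1, Enkur and Pifo. Dynlrb2 and Pifo had their lowest level of all 6 arrays there, whereas Foxj1, Ak7, Ccdc153 and Tmem212 were above every transgenic array there.

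Markers of myelinating oligodendrocytes, 9 in number, were lower in transgenic lesions in 9 of 9 cases, each with an unadjusted p under 0.05 and 8 of the 9 without overlap. Their mean was 8.43 to 8.93 in transgenic and 9.35 to 9.78 in wild type lesions, and the smallest adjusted p in limma was 0.328.

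Markers reported for other cells beside the ventricle were read in the same way. Those of the stem cell list include Mki67 and Top2a, which dividing cells of any type express. Its mean therefore cannot be assigned to cells of the ventricle wall. The mean of 9 subventricular stem and progenitor cell markers was 5.60 to 5.83 in transgenic and 5.99 to 6.09 in wild type lesions, with 8 of the 9 lower in transgenic lesions. The mean of 10 neuroblast markers was 6.41 to 6.76 in transgenic and 6.64 to 7.26 in wild type lesions. The groups thus did not overlap for the first list and overlapped for the second.

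The choroid plexus, the secretory epithelium inside the ventricle, was represented by 10 markers. Their mean was 4.86 to 5.26 in transgenic and 5.16 to 5.18 in wild type lesions, below the median probe set on every array. Transgenic means were the lower ones for 7 of the 10 markers and the higher ones for 3 (median of the differences -0.06). The differences ran from -0.45 (SE 0.23) for Clic6 to 0.31 (SE 0.36) for Ttr, a thyroid hormone carrier, both with overlap. The mean of 12 markers of meningeal and perivascular fibroblasts was 6.65 to 6.77 in transgenic and 6.12 to 6.45 in wild type lesions. Of these 12, 8 had a higher and 4 a lower mean in transgenic lesions. Dcn and Mgp differed the most, by 1.41 and 1.3, while Col1a1 and Pdgfrb each differed by -0.2. Astrocyte markers, 12 in number, had means of 7.95 to 8.51 in transgenic and 8.39 to 8.48 in wild type lesions. Cortical neuron markers had means of 8.30 to 9.02 in transgenic and 8.30 to 8.35 in wild type lesions, and microglia and macrophage markers 7.54 to 8.32 in transgenic and 7.56 to 8.97 in wild type lesions. Arrays give a level for every probe set, so no marker was at 0. The part of dissected region, sex and these cell types in the ependymal values was not tested.

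**Figure D3:**
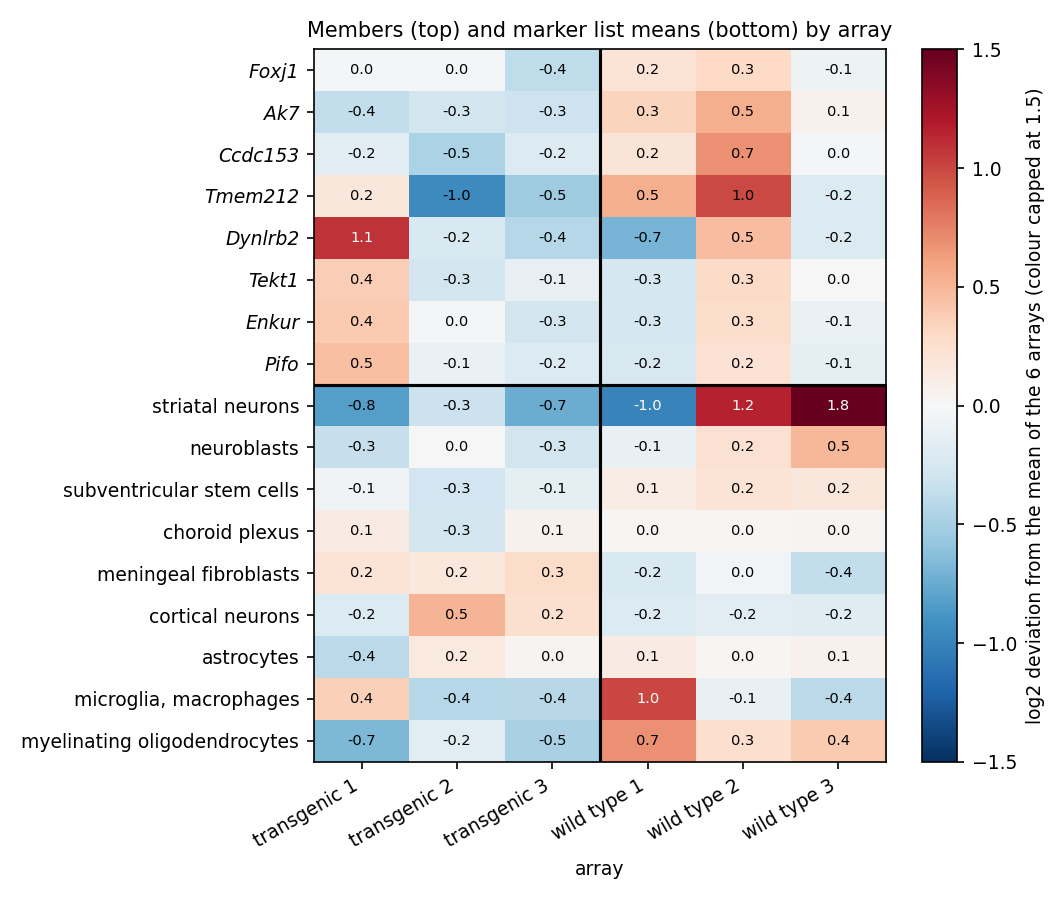
Log2 deviation from the mean of the 6 arrays (colour and printed values) for the 8 genes (upper rows) and for mean levels of 9 marker lists (lower rows), with transgenic arrays left and wild type arrays right. Wild type replicate 2 is above its gene's mean in all 8 upper rows, while striatal neuron markers are high in wild type replicates 2 and 3 alone.

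Promoters were available for 7 of the 8 measured genes in the RefSeq promoter table of mouse build GRCm38.p6, all but Foxj1, in windows from 250 bases before the transcription start to 50 bases from it on. Windows were searched on both strands for GTTGCC, one arm of the X-box that RFX factors bind, and for TGTTTAC, a forkhead motif of the kind that FOXJ1 binds. The 4 windows below show 2 genes with a lower level in transgenic lesions, Ak7 and Ccdc153, and 2 that were highest in transgenic replicate 1, Dynlrb2 and Enkur. Each is written 5′ to 3′ along the gene, with capitals for either motif.
Ak7 (chr12:105705732-105706031, plus strand): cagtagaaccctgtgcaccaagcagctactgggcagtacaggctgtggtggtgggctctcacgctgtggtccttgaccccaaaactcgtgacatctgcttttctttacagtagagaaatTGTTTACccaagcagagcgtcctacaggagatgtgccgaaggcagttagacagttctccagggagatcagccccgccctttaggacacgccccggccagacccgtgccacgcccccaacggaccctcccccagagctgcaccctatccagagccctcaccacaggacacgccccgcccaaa
Ccdc153 (chr9:44240427-44240726, plus strand): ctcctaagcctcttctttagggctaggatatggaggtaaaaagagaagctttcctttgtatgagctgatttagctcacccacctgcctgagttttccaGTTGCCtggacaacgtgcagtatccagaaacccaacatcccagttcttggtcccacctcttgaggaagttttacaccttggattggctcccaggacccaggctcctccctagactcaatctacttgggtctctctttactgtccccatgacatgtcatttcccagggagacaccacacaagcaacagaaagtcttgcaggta
Dynlrb2 (chr8:116504765-116505064, plus strand): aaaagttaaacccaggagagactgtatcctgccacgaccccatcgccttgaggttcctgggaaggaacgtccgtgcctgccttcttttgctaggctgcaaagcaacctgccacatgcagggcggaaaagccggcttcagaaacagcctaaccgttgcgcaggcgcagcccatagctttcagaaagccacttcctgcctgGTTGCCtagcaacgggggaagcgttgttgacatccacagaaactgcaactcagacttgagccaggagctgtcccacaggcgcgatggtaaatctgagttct
Enkur (chr2:21205316-21205615, minus strand): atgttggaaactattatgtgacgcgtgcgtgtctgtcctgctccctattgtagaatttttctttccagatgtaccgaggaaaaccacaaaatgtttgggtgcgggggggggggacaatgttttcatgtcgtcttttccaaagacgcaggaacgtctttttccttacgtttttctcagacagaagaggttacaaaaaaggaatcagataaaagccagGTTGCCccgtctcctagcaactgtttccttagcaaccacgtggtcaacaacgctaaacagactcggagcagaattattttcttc

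GTTGCC stood in the windows of 5 of the 7 genes, Ccdc153, Dynlrb2, Enkur, Tekt1 and Pifo, or 5 of their 9 windows, against 12.5% of all 32851 windows in the table. In Dynlrb2 it lay at -51 to -46 from the start and in Enkur at -34 to -29, close to the start in both. In Ccdc153 it lay farther out, at -152 to -147. TGTTTAC was found in 1 of the 9 windows, that of Ak7 at -131 to -125, against 3.65% of all windows, and none of the 9 windows held both motifs. The genes with GTTGCC included Ccdc153, lower in transgenic lesions, as well as Dynlrb2, Tekt1, Enkur and Pifo, which were not separated by genotype. A match of letters is a description of the sequence only.

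The wider motile cilium programme was read from 6 lists, which held 99 genes of which 87 were measured. Of these, 60 had a lower and 27 a higher mean in transgenic lesions, so 69.0% were lower. For comparison, 55.1% of the genes with a mean level in the range of the 8 members were lower, and 51.3% of all genes. Some of the 87, such as Cd24a, lay outside that range. After median centring of the arrays 52 of the 87 were lower. The share over all genes was not taken after centring, so the shares above cannot be set beside that count. The median difference was -0.13. No gene of the 87 passed the adjusted threshold, where the smallest adjusted p in limma was 0.429. At an unadjusted p under 0.05 in limma, 6 were lower (6.9%) and 2 higher (2.3%), against 4.05% and 4.82% of all probe sets. The shares over all genes were 3.06% and 3.93%. Groups did not overlap with the transgenic side lower for 13 (14.9%), against 7.6% of all probe sets and 7.0% of all genes. With the transgenic side higher this held for 1 (1.15%), against 8.54% of all probe sets and 8.38% of all genes. The lists as sets were not tested.

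Regulators of the multiciliated fate gave no call in either direction, with 7 of 11 lower and a median difference of -0.08. Rfx4, an RFX factor, had means of 5.52 ± 0.19 in transgenic and 5.96 ± 0.32 in wild type lesions (SD, n = 3 each). Rfx3, another RFX factor, differed by -0.44 (SE 0.28), with transgenic replicate 1 at 6.30 and the other 5 arrays between 7.25 and 7.48. Gmnc, which starts the multiciliated programme, differed by -0.27 (SE 0.15) and Rfx2 by -0.05.

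Among dynein arm genes 10 of 12 had lower means. Their median difference was -0.19, with 0 under an unadjusted p of 0.05. Dnah9 and Dnah5, heavy chains of the outer arm, differed by -0.30 (SE 0.17) and -0.19 (SE 0.14), and Dnah10, of the inner arm, by -0.21 (SE 0.14). In Dnah10 and Dnah5 every transgenic array was below every wild type array, though for Dnah5 the gap was 4.96 against 4.97. Dnah9, Dnah5 and Dnah10 lay below the array median on all 6 arrays. The brightest genes of the list, Dnal1 and Dnali1, differed by 0.18 (SE 0.29) and -0.23 (SE 0.18), both with overlap. Factors that assemble dynein arms in the cytoplasm went both ways, with 4 of 10 lower. Lrrc6, one of them, was higher in transgenic lesions, at 6.53 ± 0.09 against 6.10 ± 0.22 in wild type lesions (SD, n = 3 each; adjusted p 0.518 in limma), and its groups did not overlap. Dnaaf1, another, differed by -0.30 (SE 0.16) and Cfap298 by 0.31.

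Radial spoke and central pair genes had 11 of 17 lower means and a median difference of -0.10. Spef2, a central pair protein, had log2 levels of 5.13, 4.92 and 5.15 in transgenic replicates 1, 2 and 3, against 5.45, 5.68 and 5.49 in the wild type replicates, without overlap (unadjusted p 0.0134, adjusted p 0.488 in limma). It lay below the array median on 5 of the 6 arrays. Hydin, another central pair protein whose loss in mice causes hydrocephalus, differed by -0.40 (SE 0.20), also without overlap. The radial spoke gene Rsph3a differed by -0.46 (SE 0.22), with overlap.

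The list drawn up for proteins inside or on the doublet microtubules had 17 of 19 lower means and a median difference of -0.22. It also held proteins placed elsewhere, among them that of Sntn. Sntn encodes sentan, a protein of the ciliary tip. It had log2 levels of 4.72, 4.15 and 3.87 in transgenic replicates 1, 2 and 3, against 5.33, 5.65 and 4.76 in the wild type replicates, a difference of -1.0 (SE 0.29; unadjusted p 0.0108, adjusted p 0.47 in limma). Transgenic replicate 1 and wild type replicate 3 were only 0.04 apart, and Sntn lay below the array median on 5 of the 6 arrays. Cfap44, a ciliary axoneme protein, differed by -0.52 (SE 0.13) and Tppp3, a tubulin-binding protein, by -0.54 (SE 0.17), each with groups that did not overlap and adjusted p-values of 0.429 and 0.488 in limma. Cfap44 lay below the array median on all 6 arrays. Nme5, a nucleoside diphosphate kinase family member of the axoneme, went the other way, at 8.80, 8.59 and 7.98 in transgenic replicates against 7.33, 8.06 and 7.80 in wild type replicates (difference 0.73, SE 0.27, adjusted p 0.519 in limma).

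Of 18 further genes reported in ependymal cells, 11 had lower means (median difference -0.10). Fam216b differed by -0.50 (SE 0.15) and Armc3 by -0.52 (SE 0.18), both without overlap and with adjusted p-values of 0.47 and 0.492 in limma. Armc3 lay below the array median on all 6 arrays. Cd24a, a surface glycoprotein that ependymal cells share with neuroblasts, had levels of 8.79, 8.58 and 7.66 in transgenic replicates, against 8.48, 9.37 and 9.34 in wild type replicates. Genes of intraflagellar transport, which primary cilia also use, had 8 of 22 lower means and a median difference of 0.06, with 0 under an unadjusted p of 0.05. Groups did not overlap with the transgenic side higher for 4 of the 22 (18.2%), against 8.54% of all probe sets, and with it lower for 0. Bbs4, on the same list, differed the most, by 0.5 (SE 0.25), without overlap. Ift20, a transport particle subunit, differed by 0.32 (SE 0.14) and Dync2li1, a subunit of the transport dynein, by 0.37 (SE 0.18). Whether this list differs from the motile cilia lists was not tested.

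**Figure D4:**
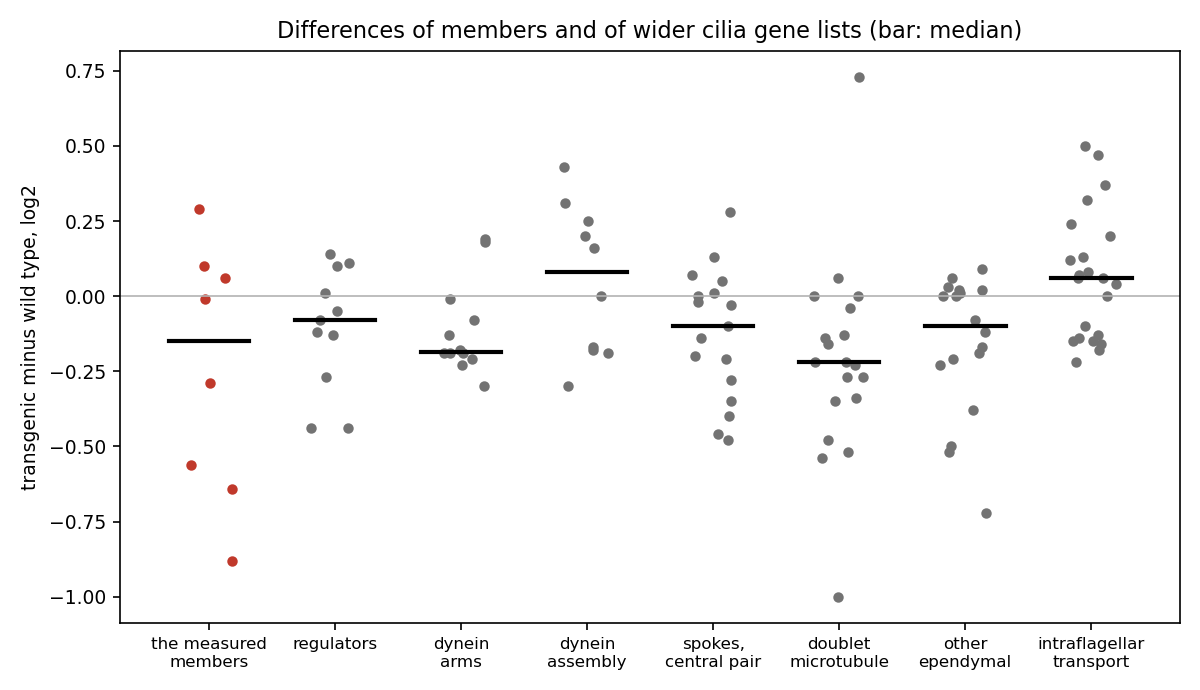
Difference in log2 intensity, transgenic minus wild type (vertical axis), of each measured gene in the 8 members, the 6 motile cilia and ependymal lists and intraflagellar transport (columns), with the median as a bar. Medians run from -0.22 for the doublet microtubule list to 0.08 for dynein assembly factors.

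The pattern over arrays in the wider lists resembled that of the members in part. Wild type replicate 2 was the highest wild type array for 56 of the 87 genes (64.4%) and transgenic replicate 1 the highest transgenic array for 46 (52.9%). For intraflagellar transport the counts were 11 and 2 of 22.

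The genes nearest to the members in profile were sought among 22172 other genes, by the root mean square distance between the centred log2 levels of a gene and the centred mean of the 8 over the 6 arrays. That mean stood at 0.24, -0.29 and -0.31 in transgenic replicates 1, 2 and 3 and at -0.02, 0.47 and -0.08 in the wild type replicates. The 10 nearest genes had distances of 0.051 to 0.087, against a median of 0.345 over all other genes. The nearest was Olfr358, an odorant receptor, followed by Gsdmc3, Vmn1r203, Fsip1, 4930412B13Rik, Lyrm7os, Rnase2b, Uroc1, Aspm and Plac9a. None of the 10 belonged to the cilia lists, and 6 lay below the array median on all 6 arrays. Olfr358, Gsdmc3, Vmn1r203, Rnase2b and Plac9a belong to multigene families whose copies can share probes. The members themselves lay 0.161 (Tekt1) to 0.447 (Dynlrb2) from their own mean. Because the 10 genes were picked for the smallest distances, their lying nearer than the members says little. Dynlrb2 and Tmem212 (0.429) lay farther from that mean than the median of all other genes, 0.345, and the other members lay nearer.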

How the data were processed

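The authors deposited RMA intensities. Per the submitters' processing notes they were made with Affymetrix Expression Console. RMA corrects background, equalises the arrays and summarises each probe set. The values were on a linear scale (array medians 40.4 to 48.3), so log2 was taken with no pseudocount. Software versions, detection calls, scan dates and genome build were not stated, so no detection filter or batch term was possible. Columns were paired with samples by accession, and groups came from the titles.

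Probe sets with exactly 1 symbol in the platform annotation (23521 of 41345) were used for named genes, 1 per gene by the highest mean over 6 arrays. All 41345 probe sets entered limma (version 3.58.1 in R 4.3.3; lmFit, eBayes, transgenic minus wild type, two-sided, Benjamini-Hochberg over all probe sets, threshold 0.05). The fit was tested on simulated data. The number of arrays limits the precision. Members, gene lists, motifs and rules were chosen with earlier results of these data known. Named were all members and, per cilia list, up to 3 genes by smallest unadjusted p and up to 2 by level. Alternatives changed scaling, probe set choice, covariates, weights, the dim filter and the arrays used.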

Additional observations from a re-analysis of the deposited data

How the results depend on the processing

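With quantile normalization, median centring, an intensity trend or the mean of all probe sets of a gene, the members past an adjusted p of 0.05 stayed at 0. Their median difference changed by less than the SD of the member mean within groups, 0.31. That SD is larger than the median difference of -0.15, so a median of 0 would also have counted as unchanged. With each array left out the median ranged from -0.27 to -0.04. Quantile normalization left 2 members with an unadjusted p under 0.05 and 4 with a lower mean. Array weights gave 2 members past the adjusted threshold (Foxj1, adjusted p 0.0478, and Ak7, 0.0233), 8 with a lower mean and a median difference of -0.42. Differences changed sign for Tekt1 with quantile normalization (0.049) and median centring (0.04); for Dynlrb2 and Pifo with sex as a covariate (-0.085 and -0.0505); and for Dynlrb2, Enkur and Pifo with array weights (-0.31, -0.25 and -0.16). With each array left out they ranged from -0.20 to 0.13 for Tekt1, -0.18 to 0.59 for Dynlrb2, -0.12 to 0.22 for Enkur and -0.10 to 0.23 for Pifo, while the number of members with a lower mean ranged from 4 to 8, with an unadjusted p under 0.05 from 1 to 3 and without overlap from 2 to 4. Above the median level 3 members were left, of which 2 had a lower mean and 1 no overlap, and no median was taken there. Probe sets with an unadjusted p under 0.05 numbered 1987 with 1 mean per gene, 2243 with the dim filter, 8604 with sex, 10793 with array weights and 2031 to 5168 with each array left out. Past the adjusted threshold were 1481 with sex, 2611 with array weights and 0 to 335 with each array left out. The causes were not tested. Alternatives for the wider lists were chosen after seeing the data and gave 52 to 70 lower means of 87. With the replicate number as a block 2 members had an unadjusted p under 0.05 in limma. Same-numbered arrays deviated from their group means with correlations of 0.01, -0.10 and -0.07, which gave no sign of pairing. With 3 centred arrays per group such correlations cannot exclude that the numbers pair samples.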
